A study of Sus scrofa with 9 samples.

Results

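The genes described here are 6 genes of lipoprotein metabolism measured in pig muscle: APOE, APOA1 and APOC3, which encode apolipoproteins, LPL, which encodes lipoprotein lipase, and VLDLR and SCARB1, which encode lipoprotein receptors. They were taken by name, through every array probe whose RefSeq accession belongs to one of these symbols in the pig gene table, which gave 16 of the 43603 probes on the array and 6 of the 3196 genes that could be named. Longissimus dorsi, the long back muscle, came from male and female Bama minipigs, a small Chinese breed, and each animal was measured on 1 Agilent array with a single dye. The HFHSD group (6 animals) ate a high-fat high-sucrose diet of 53% basal feed, 37% sucrose and 10% lard, and the CD group (3 animals) ate standard pig chow. Both were fed for 23 months from an age of 6 months, on restricted meals, with gonads intact and after an overnight fast before dissection. Sex is not labelled per animal, and the labels disagree on the size of the CD group (3 in the design, 6 in the growth protocol, 3 arrays here).

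Lipoproteins carry triglyceride and cholesterol in the blood, and apolipoproteins on their surface decide which enzymes and receptors they meet. Lipoprotein lipase, held on the capillary wall of muscle and fat, frees fatty acids from triglyceride-rich particles. APOC3 slows that step, APOE lets the remaining particles bind receptors of the LDL receptor family such as VLDLR, and APOA1 forms HDL, from which SCARB1 takes up cholesterol ester. Liver is the main source of plasma apolipoproteins, and APOE is also made by macrophages and adipocytes.

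All levels below are log2 scanner signal minus the 75th percentile of the same array, so that 0 is the 75th percentile, and the brightness of a probe is compared between animals and not with that of another probe. Sums and means over a marker list are likewise compared between animals only. Arrays differed in sensitivity. CD 1 stood apart, with 36.8% of its probes called well above background by the feature extraction software, against 51.2% to 68.9% on the 8 other arrays. Of the 16 probes, 11 were well above background on all 9 arrays and 4 on every array but CD 1. The remaining probe, the dimmest of SCARB1, was so on 2 HFHSD arrays and 0 CD arrays and was not tested. The arrays lay on 3 slides. HFHSD 5 and HFHSD 6 shared slide 1, which was scanned on another day. CD 1 was on slide 2 beside HFHSD 1, HFHSD 3 and HFHSD 4. The other CD animals, CD 2 and CD 3, were on slide 3 beside HFHSD 2. All 14 muscle fibre markers on the array were well above background on all 9 arrays.

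APOE was the member that differed between the diets. Its 1 probe read -0.43, -1.88, -1.29, -2.34, -1.36 and -1.12 in HFHSD 1 to 6, against -3.40, -3.16 and -3.19 in CD 1 to 3. All 6 HFHSD animals were above all 3 CD animals, and the HFHSD animals spread much wider (SD 0.65, n = 6) than the CD animals (SD 0.13, n = 3). The mean was -1.40 in HFHSD and -3.25 in CD, a difference of 1.84 (SE 0.36, 95% interval 1.03 to 2.66, limma adjusted p = 0.0455), which is a 3.59-fold higher signal. This was 1 of 15 tested probes of the 6 genes to pass the threshold of 0.05, where 1.24% of all tested probes passed and 0.695% passed as higher in HFHSD. It was also the only 1 of the 15 whose diets did not overlap, where 10.9% of all tested probes did not overlap (4.78% higher and 6.11% lower in HFHSD).

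The APOE signal was dim in CD muscle. The processed signal, in scanner units after background subtraction, was 127, 55.2, 67.9, 33.7, 91.8 and 135 in HFHSD 1 to 6, and 12.7, 24.9 and 22.3 in CD 1 to 3. The scanner software's own error was 4.24 on HFHSD 4, the dimmest HFHSD array, and 7.30 on CD 1, the dimmest CD array. On CD 1 the probe was not well above background, and the lowest signal with that call there corresponds to -2.03, which lies above the -2.34 of HFHSD 4. With such values raised to the floor of their array, the APOE difference was 1.39 (adjusted p = 0.146).

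The size and call of the APOE difference depended on scaling and on slide. It stayed positive in all 21 other fits that could test it and passed in 7 of them, 1 of which used the deposited table and could only repeat the result. After normexp background correction with percentile scaling it was 0.40 (adjusted p = 0.609) and the diets overlapped, with CD 1 at -0.33. That setting also moved the median of all tested probes to -0.17, against -0.025 in the setting used here. It narrowed CD 1 most of the CD arrays: with normexp and percentile scaling the probes of the members ran from -0.37 to 1.56 there. They ran from -1.94 to 2.75 on CD 2 and from -1.90 to 2.56 on CD 3. A fixed slide term gave 1.69 (adjusted p = 0.128), while slide as a random block gave 1.77 and kept the call (adjusted p = 0.0466). The call was lost without CD 1 (1.77, adjusted p = 0.141), without CD 2 (1.89, adjusted p = 0.106) and without CD 3 (1.87, adjusted p = 0.200). It was also lost without HFHSD 2, HFHSD 3, HFHSD 5 or HFHSD 6 (1.79 to 1.94, adjusted p 0.0672 to 0.0934). Within slide 2 the difference was 2.05 and within slide 3 it was 1.29.

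**Figure D1:**
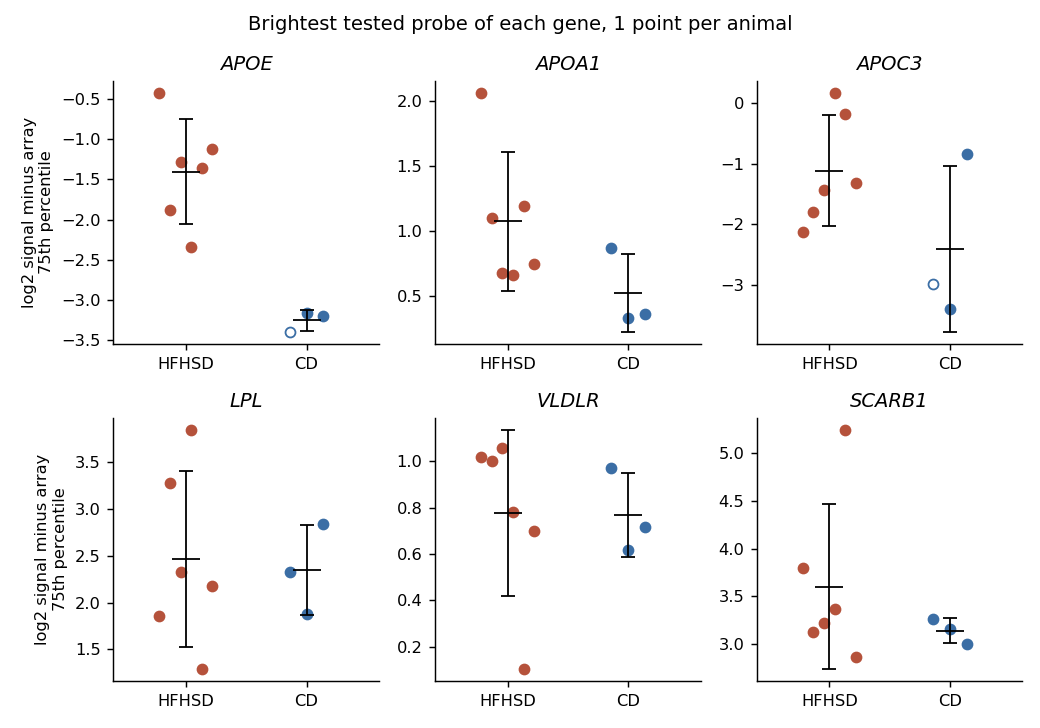
Level of the brightest tested probe of each of the 6 genes (log2 signal minus the 75th percentile of the array, each panel with its own axis) in HFHSD and CD muscle. Each point is 1 animal, the bar is the mean and the whiskers the SD (n = 6 and n = 3), and an open point was not well above background. The APOE points of the diets are apart, from -2.34 to -0.43 in HFHSD and from -3.40 to -3.16 in CD, while those of the 5 other genes overlap.

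Adipocyte markers were higher in HFHSD as APOE was. Of 15 adipocyte markers measured, 13 were higher and 1 passed (CIDEA, a lipid droplet protein), where 42.4% of all genes tested by their brightest probe were higher and 0.995% passed in either direction. At an unadjusted p under 0.05 there were 8, all higher, where 18.4% of genes were, and 6 were higher without overlap, where 4.13% of genes were. Their mean level ran from 0.43 to 1.36 in HFHSD animals and from -0.17 to 0.37 in CD animals. HFHSD 1 had both the highest adipocyte mean and the highest APOE, and HFHSD 4 had the lowest of both among HFHSD animals. The order differed elsewhere. CD 1 had the highest adipocyte mean of the CD animals (0.37) and the lowest APOE (-3.40). That mean includes the marker PCK1, which read 5.03 in CD 1, -0.70 in CD 2 and 0.08 in CD 3. A mean without PCK1 was not computed, so the place of CD 1 in this order, and the upper end of the CD range, may rest on that marker alone. HFHSD 2 had a higher adipocyte mean than HFHSD 5 (1.09 and 1.04) and a lower APOE (-1.88 and -1.36). The summed linear signal of the list overlapped, from 473 to 799 in HFHSD and 526 to 860 in CD. GPD1, 1 of the 2 markers lower in HFHSD (-0.24), made up 72.5% of that signal over the arrays, so the sums rest mainly on GPD1. All 10 tested macrophage markers were lower in HFHSD and 0 passed (0 also at an unadjusted p under 0.05), where 42.4% of all genes were higher, 0.995% passed and 18.4% had such a p. Their summed signal was 13.3 to 35.1 in HFHSD and 21.0 to 35.4 in CD. The part of either cell type in the APOE difference was not tested. In bulk muscle, more cells of a type and more RNA per cell cannot be told apart.

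Over the 9 arrays, the named genes whose pattern was most like that of APOE, of 2612 compared by their brightest probe, were ALDOC (Pearson r 0.96), KCNN3 (0.96), EDNRB (0.96), MSTN (0.94) and CIDEC (0.94). ALDOC is a glycolytic aldolase, KCNN3 a calcium-activated potassium channel, EDNRB an endothelin receptor, MSTN the muscle growth inhibitor myostatin and CIDEC a lipid droplet protein of adipocytes. All 5 were higher in HFHSD, by 1.16 (EDNRB) to 2.22 (ALDOC), so the diets themselves contribute to these values, and the points share array and slide. Within the 6 HFHSD arrays r was 0.93 for ALDOC, 0.94 for KCNN3, 0.94 for EDNRB, 0.82 for MSTN and 0.87 for CIDEC. These 6 arrays were among the 9 by which the genes were picked, so their high r is partly set by that choice.

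APOA1, the main protein of HDL, had a higher mean in HFHSD that did not pass the test, and the diets overlapped. Its brighter probe ran from 0.66 to 2.06 in HFHSD with a median of 0.92, and read 0.87, 0.34 and 0.36 in CD 1 to 3. HFHSD 1 had the highest value, and 3 of 6 HFHSD animals lay above all CD animals. The difference was 0.55 (SE 0.32, 95% interval -0.16 to 1.27, adjusted p = 0.446). The other probe differed by 0.43 (SE 0.34, adjusted p = 0.601) and ordered the animals almost alike (Pearson r 0.96 between the probes over 9 arrays), but within slide 2 it differed by -0.18. With normexp and percentile scaling the HFHSD animals were above all CD animals on both probes, with differences of 0.61 (unadjusted p = 0.0477, adjusted p = 0.571) and 0.57 (adjusted p = 0.609). In that setting CD 1 read 0.40 on both probes, against 0.87 and 1.10 in the setting used here.

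APOC3, the apolipoprotein that restrains lipoprotein lipase, varied more than any other apolipoprotein among the members and its diets overlapped. Its brighter probe ran from -2.12 to 0.17 in HFHSD with a median of -1.37, and read -2.99, -3.41 and -0.84 in CD 1 to 3. HFHSD 4 and HFHSD 5 were the highest HFHSD animals, and CD 3 was more than 2 log2 units above the other CD animals. The difference was 1.30 (SE 0.65, 95% interval -0.16 to 2.76, adjusted p = 0.368), 2.08 without CD 3, 0.80 without CD 2 and 0.27 with normexp and percentile scaling. The dimmer probe differed by 0.52 (adjusted p = 0.668), by -0.53 within slide 3 and by -0.17 with normexp and percentile scaling. Neither probe was well above background on CD 1.

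Hepatocyte genes, which include the main plasma proteins, had higher means in HFHSD with overlapping diets. Of 9 on the array, 2 were well above background on every array, HP (haptoglobin) and APOA2. All 9 were higher, 0 passed and 1 had an unadjusted p under 0.05, where 42.4% of all genes were higher, 0.995% passed and 18.4% had such a p. Their mean level was highest in HFHSD 4 (-0.19), HFHSD 5 (-0.89) and CD 3 (-1.11). The same 3 animals had the highest APOC3 by its brighter probe, at 0.17, -0.18 and -0.84. By the dimmer APOC3 probe the highest were HFHSD 5 (-1.44), HFHSD 4 (-1.71) and HFHSD 6 (-1.99), and CD 3 read -2.29. Their summed signal was 6.18 to 17.5 in HFHSD and 3.73 to 16.2 in CD. Their part in the APOC3 values was not tested. In the gene table, which is of the Sscrofa11.1 assembly, APOC3 and APOA1 are direct neighbours, next to APOA4 and APOA5. By the brighter probe, APOA5, which promotes lipase action, differed by 0.01 (adjusted p = 0.991) and APOA4 by -0.35 (adjusted p = 0.908). Both of these signs turned in other settings. The dimmer probe of each gene had a higher mean in HFHSD, with overlapping diets. For APOA5 its means were -2.52 in HFHSD and -4.12 in CD (limma adjusted p = 0.421). For APOA4 they were -3.32 in HFHSD and -3.85 in CD (limma adjusted p = 0.745). APOE lies between TOMM40 and APOC4 in the table.

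LPL, the lipase itself, differed strongly between animals and little between diets. Its brightest probe read 1.86, 3.28, 2.33, 3.85, 1.29 and 2.18 in HFHSD 1 to 6, and 2.32, 1.88 and 2.84 in CD 1 to 3. The 2 highest and the 2 lowest values were all in HFHSD animals, so the CD range lay inside the HFHSD range. The mean was 2.47 ± 0.94 in HFHSD (SD, n = 6) and 2.35 ± 0.48 in CD (SD, n = 3), a difference of 0.12 (SE 0.52, 95% interval -1.05 to 1.28, adjusted p = 0.947). In fold terms that interval runs from 0.484 to 2.42.

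The 5 LPL probes ranked the animals alike. Between pairs of them Pearson's r over the 9 arrays was 0.74 to 0.98. HFHSD 4 was the highest animal on all 5 and HFHSD 5 the lowest on 4. The other 4 probes differed by 0.25, 0.24, 0.39 and 0.67 between the diets, with adjusted p from 0.366 to 0.879. For the probe at 0.67 the lowest animal was CD 2, at -1.76, and HFHSD ran from -1.15 to 0.31. Within slide 3, HFHSD 2 was above the mean of CD 2 and CD 3 by 0.92 to 0.97 on every probe. Within slide 2, the mean of HFHSD 1, HFHSD 3 and HFHSD 4 was above CD 1 by 0.24 to 0.66. With slide as a fixed block the brightest probe differed by 0.62 (adjusted p = 0.591).

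The highest LPL and the highest APOE were in different animals. HFHSD 4 had the highest LPL, and the lowest APOE (-2.34) and adipocyte mean (0.43) of the HFHSD animals. The genes most like LPL over the 9 arrays were LDHB, the lactate dehydrogenase subunit of oxidative tissues (Pearson r 0.95), the plasminogen receptor PLGRKT (0.93), PRKAG1, a subunit of the energy sensor AMPK (0.92), AQP7, a glycerol channel and 1 of the 15 adipocyte markers (0.90), and the plasma protein APCS (0.90). Their diet differences ran from -0.48 (APCS) to 0.63 (AQP7). These values rest on the differences between animals of the same diet, with r within the 6 HFHSD arrays from 0.94 (PRKAG1) to 0.98 (LDHB). Those 6 arrays were also among the 9 by which the genes were picked.

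**Figure D2:**
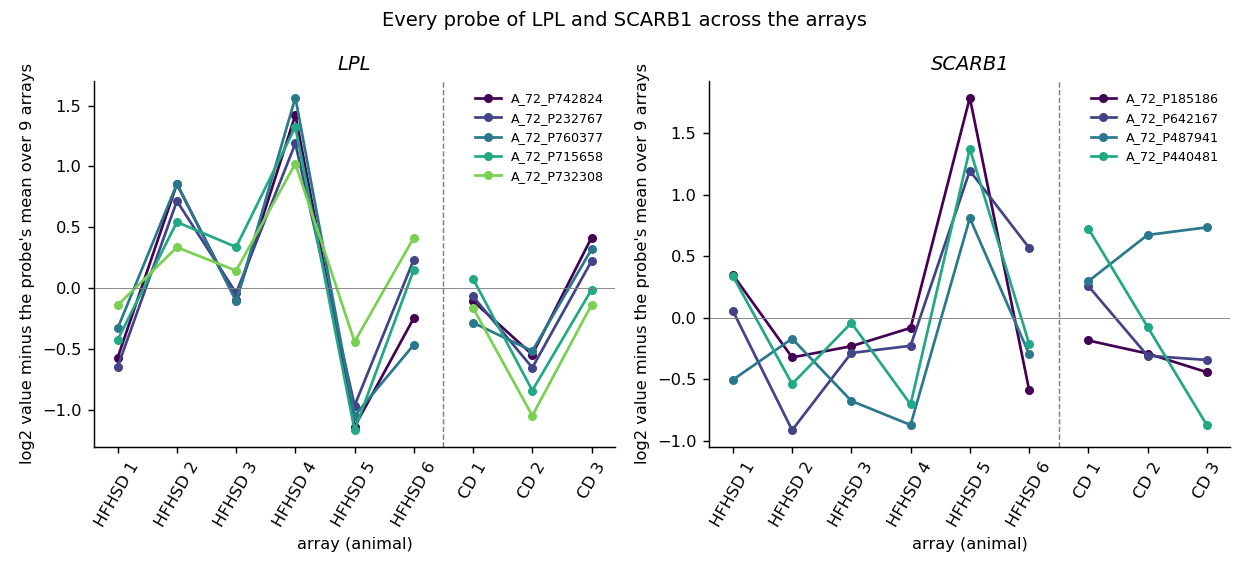
Each line is 1 probe of LPL (5 probes, left) or SCARB1 (4 probes, right), as its log2 value minus its own mean over the 9 arrays, with the 6 HFHSD animals left of the dashed line and the 3 CD animals right of it. Lines only join the values of 1 probe, since animals have no order. The LPL probes move together, highest in HFHSD 4, whereas the SCARB1 probes share the high value of HFHSD 5 and part elsewhere.

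VLDLR, a receptor that binds APOE-rich particles beside lipoprotein lipase in muscle and fat, was close to equal in the diets. Its brighter probe ran from 0.10 to 1.06 in HFHSD with a median of 0.89, and read 0.97, 0.62 and 0.72 in CD 1 to 3. HFHSD 5 was the lowest animal. The mean was 0.78 ± 0.36 in HFHSD (SD, n = 6) and 0.77 ± 0.18 in CD (SD, n = 3), a difference of 0.01 (SE 0.24, 95% interval -0.53 to 0.54, adjusted p = 0.992). The interval corresponds to folds of 0.694 to 1.46. The dimmer probe differed by 0.21 (SE 0.23, adjusted p = 0.725) and did not follow the brighter one over the arrays (Pearson r 0.10); it was not well above background on CD 1.

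SCARB1, the HDL receptor, gave different answers from different probes. The brightest ran from 2.86 to 5.24 in HFHSD with a median of 3.29, and read 3.26, 3.16 and 3.01 in CD 1 to 3. HFHSD 5, at 5.24, stood above the next HFHSD animal, at 3.80, and the CD animals were close together (SD 0.13). The difference was 0.46 (SE 0.46, 95% interval -0.57 to 1.49, adjusted p = 0.701), and 0.13 without HFHSD 5.

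A dimmer SCARB1 probe, A_72_P487941, went the other way and was the only 1 of the 15 with a lower mean in HFHSD. It read -2.03, -1.69, -2.20, -2.40, -0.71 and -1.82 in HFHSD 1 to 6, against -1.23, -0.85 and -0.79 in CD 1 to 3. All HFHSD animals except HFHSD 5 lay below all CD animals. The difference was -0.85 (SE 0.34, 95% interval -1.62 to -0.09, unadjusted p = 0.0319, adjusted p = 0.247), with -0.98 within slide 2 and -0.87 within slide 3. It was negative in all 22 other fits, from -1.12 to -0.48, and passed in 0 of them (lowest adjusted p = 0.0538). Its Pearson r with the brightest SCARB1 probe was 0.31 over the 9 arrays. The third tested probe differed by 0.20 (adjusted p = 0.873), and its sign turned in 5 of 22 other fits. All 4 probes carry the same accession, and the array files do not say which part of the transcript each one reads.

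**Figure D3:**
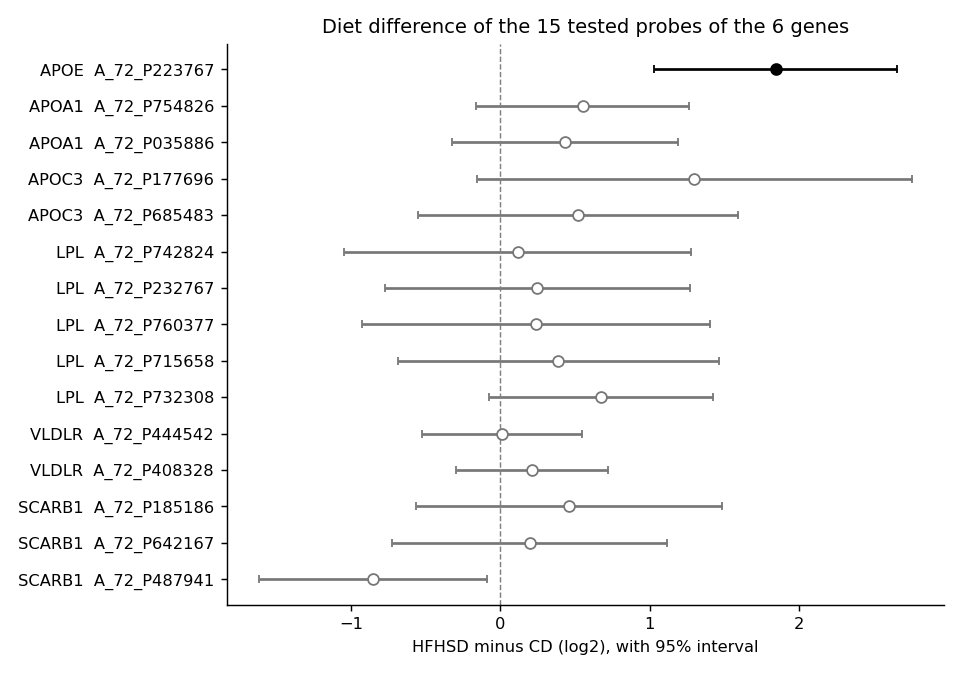
HFHSD minus CD difference (log2) of each of the 15 tested probes, with its 95% interval from limma. The filled point is the 1 probe that passed after adjustment over all tested probes (APOE, 1.84), and the open points, from -0.85 to 1.30, did not pass.

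Across the 6 genes, which were chosen with earlier results of these data known, the brightest probe of each was higher in HFHSD. Of all genes tested by their brightest probe, 42.4% were higher. This count includes VLDLR at 0.01 and LPL at 0.12, whose signs turned in some fits that left out 1 array. Over their 15 tested probes 14 were higher, with a median difference of 0.39. The median of all tested probes was -0.025, and the share of them that was higher was not counted. Several of the 15 read the same transcript, so they are not independent, and 2 of them had an unadjusted p under 0.05, where 16.5% of all tested probes did.

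Other genes of lipoprotein metabolism, 82 in a list drawn up with earlier results of these data known, were read beside the 6. Of them 34 were on the array by name and 30 were tested. By the brightest probe 14 were higher and 16 lower in HFHSD, where 42.4% of all genes tested this way were higher. The median difference was -0.14 (all genes tested this way had a median of -0.086), and 0 passed with limma, where 0.995% of genes passed (0.498% in each direction). At an unadjusted p under 0.05 there were 9 (3 higher and 6 lower), where 18.4% of genes were. The diets did not overlap for 3 genes that were higher and 5 that were lower, where 4.13% and 8.84% of genes were of these kinds.

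Among 7 tested apolipoproteins, 6 were higher, where 42.4% of all genes were. CLU, also called apolipoprotein J, a secreted chaperone, ran from 1.36 to 2.24 in HFHSD and read 1.09, 0.84 and 1.10 in CD 1 to 3, without overlap. Its difference was 0.82 (SE 0.21, adjusted p = 0.0899). CLU passed with array weights (adjusted p = 0.0301) and with normexp and quantile normalisation (adjusted p = 0.0215). It also passed among probes well above background on all arrays (adjusted p = 0.0447) and with the percentile over detected probes (adjusted p = 0.0464). APOF, a minor apolipoprotein, also did not overlap, but its difference of 1.03 (adjusted p = 0.452) became -0.03 with normexp and percentile scaling. SAA3, an acute-phase serum amyloid, differed by 0.95 (adjusted p = 0.645), and by -0.02 in that setting. The dimmer SAA3 probes differed by 0.43 to 1.57, with overlapping diets. APOA2, a second HDL protein, differed by 0.18 (adjusted p = 0.875), and by -0.18 with slide as a fixed block.

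Of the lipases and their partners, 2 of 4 tested genes were higher, where 42.4% of all genes were. LIPA, the lysosomal lipase that hydrolyses cholesterol ester and triglyceride, differed by 0.83 (SE 0.33, adjusted p = 0.237), with values of -1.61 to -0.30 in HFHSD and -2.27, -2.05 and -1.56 in CD 1 to 3. ANGPTL4, a secreted inhibitor of lipoprotein lipase, differed by -0.17 (adjusted p = 0.838), and its sign turned without CD 1 and with normexp and percentile scaling. The pancreatic lipase PNLIP (0.67) and the hepatic lipase LIPC (-0.42) were near background, well above it on 3 and 4 of 6 HFHSD arrays and on 1 and 2 of 3 CD arrays, and both signs turned in other settings.

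SCARB2, a lysosomal membrane protein of the same family as SCARB1 and CD36, had the smallest p of the whole list. It ran from 3.50 to 4.11 in HFHSD and read 4.75, 4.79 and 4.94 in CD 1 to 3. The brightest probe differed by -0.90 (SE 0.19, adjusted p = 0.0546), and it passed in 5 other settings, among them slide as a random block (-0.83, adjusted p = 0.0436). Each of the 6 SCARB2 probes was lower without overlap, by -0.75 to -1.09, where 6.11% of all tested probes were. Of the 6, 1 dimmer probe passed (adjusted p = 0.0418), where 0.541% of all tested probes passed as lower. These probes read the same gene in the same animals, so they are not independent. CD36, which takes up fatty acids, had a difference of 0.03 (adjusted p = 0.980), whose sign turned when single arrays were left out. The dimmer CD36 probes differed by 0.22, 0.33 and 0.21, with overlapping diets. LRPAP1, a chaperone of LDL receptor family proteins, ran from 0.19 to 0.88 in HFHSD and read 1.66, 1.29 and 1.42 in CD 1 to 3, a difference of -0.80 (SE 0.20, adjusted p = 0.0819). With slide as a random block LRPAP1 passed (-0.91, adjusted p = 0.0327). It also passed with array weights (adjusted p = 0.0492) and among probes well above background on all arrays (adjusted p = 0.0401). OLR1, a receptor of oxidised LDL, differed by 0.45 (adjusted p = 0.785), and its sign turned with normexp and percentile scaling (-0.26) and with dim values raised to the floor (-0.14). DAB1, an adaptor of VLDLR, differed by -0.68 (adjusted p = 0.651) and was well above background on 3 of 6 HFHSD and 2 of 3 CD arrays.

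NPC2 and NPC1, which together move cholesterol out of lysosomes, were lower in every HFHSD animal than in any CD animal. NPC2 ran from 2.35 to 2.89 in HFHSD and read 3.14, 3.37 and 3.66 in CD 1 to 3, a difference of -0.86 (SE 0.20, adjusted p = 0.0656), and its other probe differed by -0.75. NPC2 passed with array weights (adjusted p = 0.0315) and with normexp and quantile normalisation (adjusted p = 0.0254). It also passed with a variance trend and robust prior together (adjusted p = 0.0360) and among probes well above background on all arrays (adjusted p = 0.0306). NPC1 differed by -0.73 (SE 0.25, adjusted p = 0.171). CYP27A1, a mitochondrial sterol hydroxylase, differed by 0.54 (adjusted p = 0.557) and LCAT, which esterifies cholesterol on HDL, by -0.25 (adjusted p = 0.605). The dimmer CYP27A1 probe differed by 0.74 (SE 0.23, adjusted p = 0.146) and was higher in HFHSD without overlap, where 4.78% of all tested probes were.

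Of 8 tested transcription factors, 2 were higher, where 42.4% of all genes were. PPARG, the regulator of adipocyte differentiation and also an adipocyte marker above, was higher on each of its 3 probes, by 0.96 on the brightest (SE 0.28, adjusted p = 0.119). RXRB, a partner of PPAR and LXR receptors, differed by -0.99 (SE 0.29, adjusted p = 0.119) by its brightest probe, while its other 2 probes differed by -0.28 and -0.34 and overlapped. NR1H3, the LXR receptor that activates APOE and LPL in macrophages and fat, differed by -0.11 (adjusted p = 0.872), and its sign turned with quantile normalisation, with normexp and percentile scaling, without CD 1 and without slide 1. PPARA differed by -0.60 (adjusted p = 0.411) and HNF4A, a liver factor well above background on 2 of 6 HFHSD and 1 of 3 CD arrays, by -1.56 (adjusted p = 0.169).

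**Figure D4:**
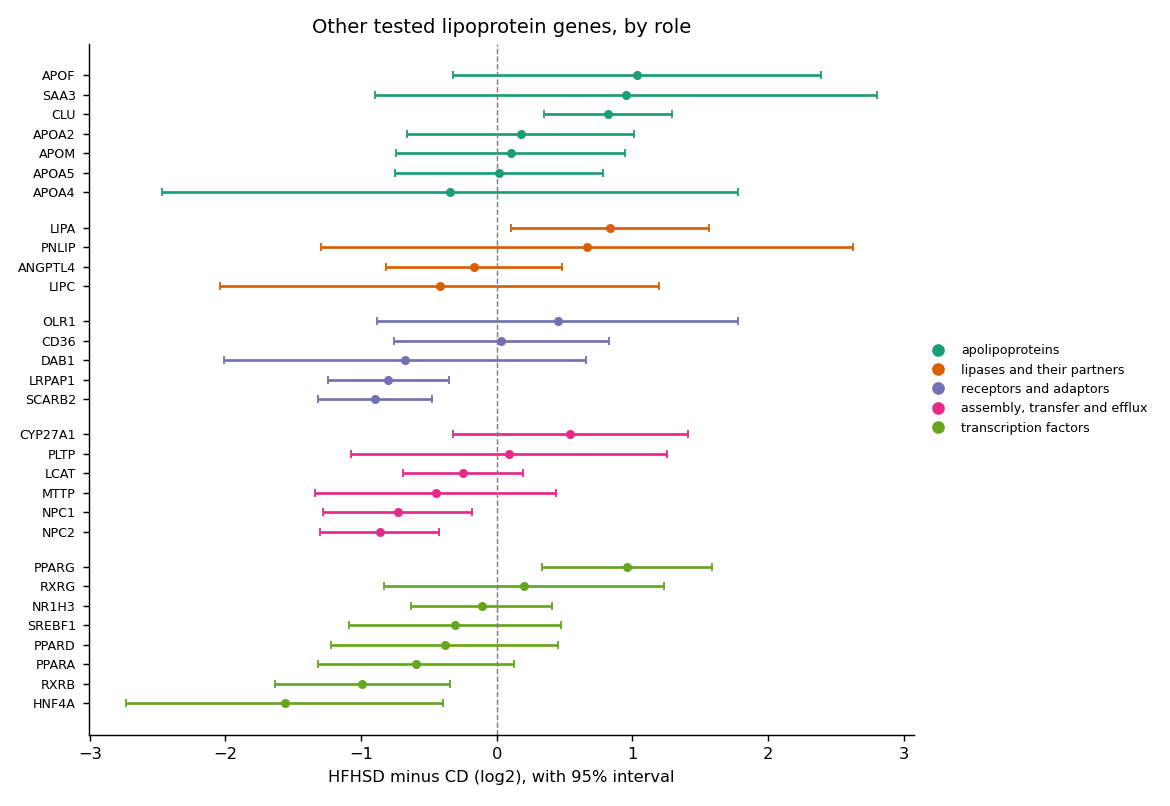
HFHSD minus CD difference (log2) with its 95% interval from limma for the 30 other tested genes of lipoprotein metabolism, each by its brightest probe and coloured by role. The intervals of CLU, LIPA and PPARG lie above 0 and those of SCARB2, LRPAP1, NPC1, NPC2, RXRB and HNF4A below it, and 0 of the 30 passed after adjustment over all tested probes.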

How the data were processed

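RNA of longissimus dorsi from 9 minipigs (6 HFHSD, 3 CD, grouped by the diet label) was labelled with Cy3 and hybridised to 1 array per animal. Spot intensity, on a linear scale, was extracted by the authors with Agilent Feature Extraction 10.7.3.1, per the file headers, whose processed signal is background-subtracted within each array. The series-wide table that the authors deposited repeats these intensity values (0 spots differed on each array). No spot was saturated.

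Control and outlier spots were left out, spots of a probe were averaged in log2, and the 75th percentile of each array was subtracted. Of 43603 probes, 22 had no usable spot on some array. Probes well above background on at least 3 arrays were tested (27922) with limma 3.58.1 in R 4.3.3, two-sided, HFHSD against CD without covariates, and p-values were adjusted by Benjamini-Hochberg over all of them. Each fit's SE and 95% interval are given. A gene stands by its brightest tested probe (2613 genes). Accessions named 6891 probes through a RefSeq gene table of Sscrofa11.1, used for names and neighbours only, since the files name no build.

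Genes named are the 6 members, up to 4 genes of each role in the lipoprotein list with the smallest p, 5 genes most like APOE and LPL, and cell type markers; APOA4, APOA5, CD36 and NR1H3 were added after their values were seen, as were 2 alternatives (without slide 1, and dim values raised to the array floor). The members and lists were chosen with earlier results of these data known. Alternatives covered scaling, background correction (normexp, offset 50, on median spot signals, as the files hold no mean signals), dim-probe filters, slide, array weights, the variance prior and each array left out. The markers of endothelium, Schwann cells, fibroblasts and blood were also read. Among these, 7, 3, 4 and 1 were tested, and 0 passed in each, where 0.995% of all genes passed. At an unadjusted limma p under 0.05 there were 1, 1, 1 and 0, where 18.4% of all genes were. Replicate numbers follow accession order and pair no animals. Precision is limited by the number of arrays.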

Additional observations from a re-analysis of the deposited data

Results flagged for a closer look

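Of 36 probes examined (the 16 probes of the 6 genes and the 20 named genes of the lipoprotein list), 3 had 1 HFHSD animal far from the other 5, by a criterion that chance meets in about 1 of 20 groups. None of the 3 was a probe of the 6 genes. APOF read -0.41 in HFHSD 1, against -2.78 in the next animal. SCARB2 read 3.50 in HFHSD 6, below the next at 3.92. LRPAP1 read 0.19 in HFHSD 2, below the next at 0.67.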

How the results depend on the processing

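The directions of APOE, APOA1 and APOC3 by their brightest probe were the same in every alternative that gave a value. LPL ran from -0.16 to 0.36 and VLDLR from -0.065 to 0.14 over the fits that left out 1 array, with the signs of both turning. VLDLR was -0.018 with normexp and quantile normalisation, -0.017 within slide 2 and 0.34 within slide 3, and SCARB1 was -0.066 by the mean of its tested probes. APOE ran from 1.65 to 2.03 with 1 array left out (adjusted p 0.0259 to 0.200, passing in 2 of 9), APOA1 from 0.35 to 0.72, APOC3 from 0.80 to 2.08 and SCARB1 from 0.13 to 0.61. APOE did not pass with quantile normalisation (1.72), normexp and percentile scaling (0.40), normexp and quantile normalisation (0.73), no filter (1.84, with more probes tested), slide as a fixed block (1.69), without slide 1 (1.76) or with dim values raised to the array floor (1.39); in these settings 0 probes of the 6 genes passed, and the cause was not tested. APOE and APOC3 were not tested among probes well above background on all arrays, where 0 passed.

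All tested probes that passed numbered 345, and 88 with normexp and percentile scaling, 856 with normexp and quantile normalisation, 66 without a filter, 735 among probes well above background on all arrays, 82 with slide as a fixed block, 678 as a random block, 615 with a variance trend and robust prior together, 1206 with array weights, 118 without slide 1 and 21 to 349 with 1 array left out. Lipoprotein list genes that passed numbered 0, and 3 with normexp and quantile normalisation, 4 among probes well above background on all arrays, 2 with slide as a random block, 2 with a variance trend and robust prior together, 4 with array weights and 1 with the percentile over detected probes, and 0 with 1 array left out. Probes of the 6 genes that passed numbered 0 to 1 with 1 array left out. The counts were not computed within slides. No paired analysis was possible because the labels give no replicate numbers that tie HFHSD to CD animals.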
